A study of Mus musculus with 16 samples.

Results

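The genes that write and erase DNA methylation were followed through 16 RNA sequencing libraries of mouse hippocampal cultures. The set was a fixed list of 9 genes out of the 55385 genes in the deposited tables, set by name from what the enzymes do, with earlier results of these data known. Dnmt3a and Dnmt3b encode the enzymes that place methyl groups on unmethylated DNA, and Dnmt1 encodes the enzyme that copies methylation onto the new strand after replication. Uhrf1 recognizes half-methylated DNA and brings Dnmt1 to it, and Uhrf2 is its close relative. Tet1, Tet2 and Tet3 oxidize methylcytosine to hydroxymethylcytosine and further, and the glycosylase Tdg cuts out the last oxidized forms so that base excision repair can put back an unmodified cytosine. Neurons no longer divide, and in the brain Dnmt3a is known as the main methyltransferase of maturing neurons, while hydroxymethylcytosine is unusually abundant there.

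Primary hippocampal cultures from newborn C57Bl/6N mice were infected 4 days after plating with a recombinant adeno-associated virus carrying either Control-shRNA or an shRNA against Dnmt3a1, the long isoform of Dnmt3a. Each culture was then left at baseline or treated for 4 h with 50 µM bicuculline, a blocker of GABA-A receptors that releases network activity from inhibition. The 4 groups were Control-shRNA at baseline, Control-shRNA with bicuculline, Dnmt3a1-shRNA at baseline and Dnmt3a1-shRNA with bicuculline, with 4 libraries each from independent preparations. All cultures, the controls included, carried a virus with an shRNA and a GFP cassette, and 1 hairpin against Dnmt3a1 was used in these libraries. No group was without virus, and the cultures hold glia beside neurons.

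Depth differed little, with 28912697 to 29586355 estimated read pairs per library and a median of 29098588.5, of which 2.73% to 6.60% came from mitochondrial genes. The mitochondrial share moved with the groups, from a mean of 3.80% ± 0.80 (SD, n = 4) in Control-shRNA at baseline and 4.31% ± 1.1 with bicuculline to 4.52% ± 1.3 and 5.19% ± 1.3 in Dnmt3a1-shRNA cultures, with overlapping ranges, and its part in the differences below was not tested. All 6 neuronal markers (Rbfox3, Map2, Tubb3, Snap25, Syt1 and Stmn2) were present, with a summed level of 6121 to 8435 CPM over the libraries, against 658 to 976 CPM for 6 astrocyte markers and 1.9 to 4.9 CPM for 6 microglial markers. Because RNA was taken from whole cultures, fewer cells of a type and less RNA per cell cannot be told apart in any value below. All 9 genes passed the filter on low counts and were among the 17222 genes tested across the whole table, although Dnmt3b and Uhrf1 did so with few counts. Values within a gene are given as CPM (read counts scaled to library size, with edgeR's TMM factors), and values between genes as TPM, in which counts are also scaled for transcript length. A difference passed the test at an adjusted p under 0.05 in edgeR's quasi-likelihood test, two-sided, with Benjamini-Hochberg adjustment over all tested genes. Beside it stands a fold limit of 0.5 on the log2 scale. Differences are log2 fold changes ± their standard error, with 4 libraries in each group.

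The targeted stretch of Dnmt3a is shown first because every knockdown comparison rests on it. It is 25 bases long and crosses a splice junction, so that it exists in spliced RNA only. The lower-case letters are the last 17 bases of exon 2 of transcript Dnmt3a-201, at chr12:3835244-3835260, and the capitals are the first 8 bases of exon 3, at chr12:3849635-3849642, both on the plus strand of GRCm38 and both coding.
Target in Dnmt3a: gggaggatgatcgaaagGAAGGAGA
The stretch is present in 4 of the 18 annotated Dnmt3a transcripts, which are Dnmt3a-201 (9685 nt), Dnmt3a-218 (8737 nt), Dnmt3a-206 (827 nt) and the retained-intron transcript Dnmt3a-202 (1944 nt). It is absent from Dnmt3a-203 (5424 nt), which starts further downstream and encodes the short isoform Dnmt3a2. None of the 71 transcripts of the other 8 genes holds the full 25 bases. Shorter or partial matches were not searched, so effects of the hairpin on these genes through such matches were not tested.

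Dnmt3a (ENSMUSG00000020661.15) spans chr12:3806007-3914443 on the plus strand. Its level was 311, 293, 321 and 324 CPM in the 4 Control-shRNA baseline libraries and 338, 333, 325 and 311 CPM in the Control-shRNA bicuculline libraries. In the Dnmt3a1-shRNA cultures it was 45.5, 39.4, 45.1 and 48.0 CPM at baseline and 45.1, 47.8, 44.5 and 43.8 CPM with bicuculline. Each knockdown library lay far below each control library. The difference was −2.81 ± 0.06 at baseline (adjusted p = 8.9e-15 by edgeR), which left 14.2% of the control level, and −2.85 ± 0.06 with bicuculline (adjusted p = 7.4e-15 by edgeR), which left 13.9%. Bicuculline itself gave 0.06 ± 0.06 in Control-shRNA cultures and 0.03 ± 0.06 in Dnmt3a1-shRNA cultures, neither past the test (edgeR adjusted p = 0.42 and 0.76), with 95% intervals of −0.05 to 0.18 and −0.09 to 0.15. Scaling by library size alone turned both values, to −0.09 and −0.12, and likewise did not pass.

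The tables sum all transcripts of a gene, so the isoforms Dnmt3a1 and Dnmt3a2 have no values of their own. Count and TPM of the same gene together do give the mean length of its transcripts, since TPM divides each count by length. The relation was set on 872 genes with 1 annotated transcript, which fell on it within 0.0393% (median deviation) or less in each library. In Control-shRNA baseline libraries the mean length of Dnmt3a RNA came to 9204, 8987, 8528 and 8716 nt, and in Dnmt3a1-shRNA baseline libraries to 9061, 8674, 8747 and 8234 nt. With bicuculline it was 8469, 8890, 8649 and 8846 nt under Control-shRNA and 8424, 8316, 8427 and 8583 nt under Dnmt3a1-shRNA. The groups overlapped in both conditions, and in each library the mean stayed well above the 5424 nt of Dnmt3a-203. This is a description of how the authors' software divided the reads, without a test.

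**Figure D1:**
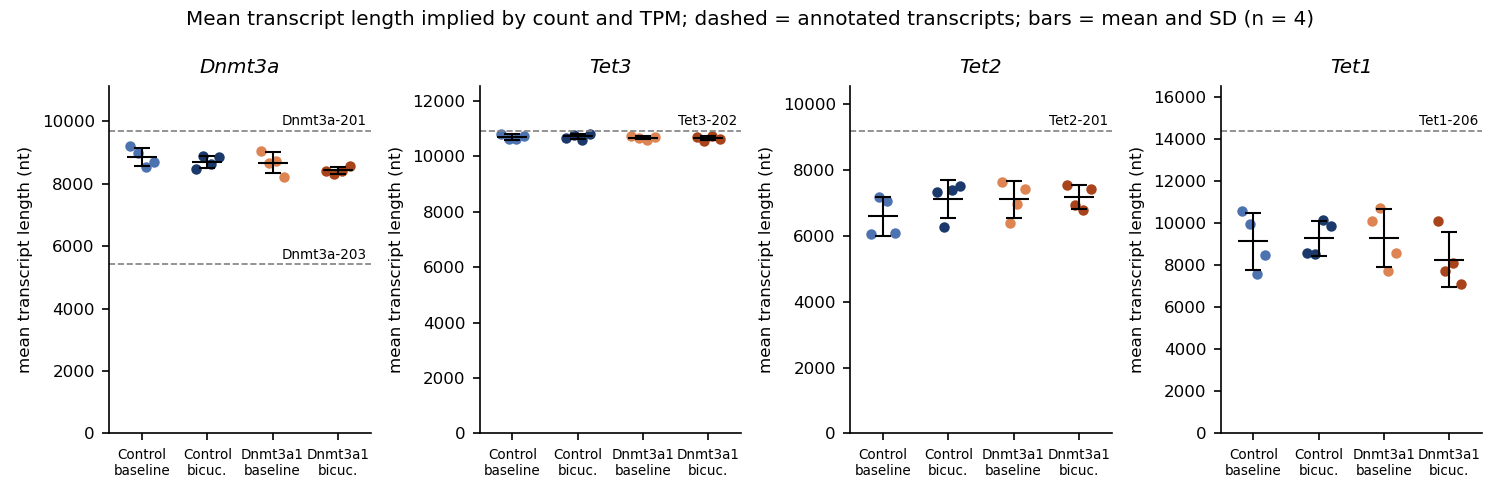
Mean transcript length in nucleotides (y axis) of Dnmt3a, Tet3, Tet2 and Tet1 RNA in each library (points) of the 4 groups (x axis), from count and TPM, with mean and SD (bars, n = 4) and annotated transcripts as dashed lines. Dnmt3a stays between 8234 and 9204 nt in all 16 libraries, and Tet3 between 10569 and 10824 nt.

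Dnmt1 (ENSMUSG00000004099.16, chr9:20907209-20959888, minus strand) held nearly the same TMM-scaled level in 3 of the 4 groups, which depends on the scaling. It was 57.5, 53.8, 57.7 and 59.0 CPM in Control-shRNA at baseline and 58.2, 58.3, 54.6 and 53.1 CPM with bicuculline. In Dnmt3a1-shRNA cultures it was 61.7, 54.5, 56.4 and 58.8 CPM at baseline and 50.2, 55.0, 49.5 and 49.4 CPM with bicuculline. The knockdown groups overlapped through the second replicate of each. Dnmt1 fell with bicuculline in Dnmt3a1-shRNA cultures by 0.18 ± 0.06 on the log2 scale (edgeR adjusted p = 0.016), well inside the fold limit, and this call was lost without Dnmt3a1-shRNA baseline replicate 1 (−0.15, edgeR adjusted p = 0.061), without a filter on low counts (−0.19, edgeR adjusted p = 0.062) and with only the 2 groups fitted (−0.17, edgeR adjusted p = 0.055). In Control-shRNA cultures the difference was −0.02 ± 0.06 (edgeR adjusted p = 0.78). It passed at −0.18 when scaled by library size alone (edgeR adjusted p = 0.012) and at −0.24 on log2(TPM + 0.1) (limma adjusted p = 0.024), where the levels of 22.5 to 25.4 TPM at baseline and 19.1 to 21.2 TPM with bicuculline do not overlap. These scalings also moved the median of all tested genes, by −0.15 and −0.19. Against Control-shRNA, Dnmt3a1-shRNA gave 0.02 ± 0.06 at baseline (95% interval −0.09 to 0.13, edgeR adjusted p = 0.85, and −0.06 when scaled by library size alone) and −0.13 ± 0.06 with bicuculline (95% interval −0.25 to −0.02, edgeR adjusted p = 0.12). The latter passed when scaled by library size alone, at −0.20 (edgeR adjusted p = 0.017).

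Dnmt3b (ENSMUSG00000027478.15, chr2:153649450-153687730, plus strand), the second enzyme that methylates unmethylated DNA, was close to the floor of detection. It had 15, 14, 11 and 10 counts in Control-shRNA at baseline and 3, 6, 2 and 4 counts with bicuculline, which do not overlap. Dnmt3a1-shRNA cultures had 11, 10, 10 and 17 counts at baseline and 7, 7, 8 and 5 counts with bicuculline, which do not overlap either. Dnmt3b fell with bicuculline in Control-shRNA cultures, at −1.54 ± 0.34 (edgeR adjusted p = 0.0015). In Dnmt3a1-shRNA cultures the difference was −0.66 ± 0.31 (edgeR adjusted p = 0.097), which passed when scaled by library size alone (−0.81, edgeR adjusted p = 0.039). The knockdown itself gave 0.02 ± 0.28 at baseline, or −0.07 when scaled by library size alone, and 0.90 ± 0.38 with bicuculline (edgeR adjusted p = 0.98 and 0.15). The 95% intervals, −0.54 to 0.57 and 0.16 to 1.64, are wide at these counts. Of the 31-base stretches in Dnmt3b transcripts, 13.5% occur in other genes, mostly in Dnmt3c, which had 0 to 3 counts per library.

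Uhrf1 (ENSMUSG00000001228.14, chr17:56303321-56323486, plus strand), the partner of Dnmt1 in dividing cells, was equally scarce, with 6 to 16 counts per library in Control-shRNA at baseline, 8 to 27 with bicuculline, 10 to 16 in Dnmt3a1-shRNA at baseline and 10 to 18 with bicuculline. The 4 ranges overlapped, and none of the 4 differences passed (log2 fold changes from −0.05 to 0.71, edgeR adjusted p from 0.12 to 0.94). Without Control-shRNA bicuculline replicate 1 the bicuculline difference in Control-shRNA cultures was 0.91 and passed, at an edgeR adjusted p of 0.047. Of its 31-base stretches 24.2% are shared with other genes, mostly with Gm5648, which is listed at 0 counts in all libraries.

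Uhrf2 (ENSMUSG00000024817.13, chr19:30030513-30093722, plus strand) was far more abundant, at 27.5 TPM in Control-shRNA baseline cultures against 0.304 TPM for Uhrf1. It was 39.3, 34.1, 31.4 and 38.6 CPM in Control-shRNA at baseline and 45.1, 37.0, 41.0 and 49.1 CPM with bicuculline. In Dnmt3a1-shRNA cultures it was 49.0, 38.7, 35.8 and 43.7 CPM at baseline and 55.0, 56.5, 50.2 and 53.7 CPM with bicuculline. The groups overlapped in the control arm and did not in the knockdown arm. Uhrf2 rose with bicuculline by 0.27 ± 0.10 in Control-shRNA cultures (edgeR adjusted p = 0.046) and by 0.37 ± 0.10 in Dnmt3a1-shRNA cultures (edgeR adjusted p = 0.0067). It was also higher in Dnmt3a1-shRNA than in Control-shRNA with bicuculline, by 0.32 ± 0.10 (edgeR adjusted p = 0.037, no overlap), while at baseline the difference of 0.22 ± 0.10 did not pass (edgeR adjusted p = 0.16). In a fit blocked on replicate number that baseline difference passed, at 0.22 and an edgeR adjusted p of 0.026. Scaled by library size alone, the response in Control-shRNA cultures was 0.11 and did not pass (edgeR adjusted p = 0.33), nor did it without a filter on low counts (0.26, edgeR adjusted p = 0.052). On the scale of log2(TPM + 0.1) none of these Uhrf2 calls passed with limma, at 0.13 for both bicuculline responses and 0.17 for the knockdown with bicuculline (limma adjusted p from 0.37 to 0.39). The call in Control-shRNA cultures was lost without any one of 9 libraries (0.18 to 0.29, edgeR adjusted p 0.052 to 0.17). These were Control-shRNA baseline replicates 2 and 3, Control-shRNA bicuculline replicates 1, 3 and 4, Dnmt3a1-shRNA baseline replicate 4 and Dnmt3a1-shRNA bicuculline replicates 1, 2 and 4. The knockdown call with bicuculline was lost without any one of 5 libraries (0.26 to 0.32, edgeR adjusted p 0.067 to 0.11), namely Control-shRNA bicuculline replicates 2 and 3 and Dnmt3a1-shRNA bicuculline replicates 1, 2 and 4.

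The 3 TET genes moved apart upon bicuculline in both arms, with Tet3 and Tet2 higher and Tet1 lower. Tet3 rose 3.75-fold in Control-shRNA and 3.79-fold in Dnmt3a1-shRNA cultures, Tet2 2.09-fold and 2.66-fold, and Tet1 fell to 50.5% and 43.8% of its baseline level. Tet3 (ENSMUSG00000034832.15) lies on chr6:83362373-83459084, Tet2 (ENSMUSG00000040943.12) on chr3:133463679-133545139 and Tet1 (ENSMUSG00000047146.17) on chr10:62804570-62908996, all 3 on the minus strand. The 250 bases upstream of the RefSeq start of the 2 genes that rose are printed for comparison, on GRCm38.p6, read along the minus strand, with each CG dinucleotide in capitals.
Tet3, chr6:83441679-83441928: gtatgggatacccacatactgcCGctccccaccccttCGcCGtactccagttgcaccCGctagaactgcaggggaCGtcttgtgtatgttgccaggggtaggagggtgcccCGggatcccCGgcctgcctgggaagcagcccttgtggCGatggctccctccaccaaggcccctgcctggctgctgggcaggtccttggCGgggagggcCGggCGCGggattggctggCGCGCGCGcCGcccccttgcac
Tet2, chr3:133544391-133544640: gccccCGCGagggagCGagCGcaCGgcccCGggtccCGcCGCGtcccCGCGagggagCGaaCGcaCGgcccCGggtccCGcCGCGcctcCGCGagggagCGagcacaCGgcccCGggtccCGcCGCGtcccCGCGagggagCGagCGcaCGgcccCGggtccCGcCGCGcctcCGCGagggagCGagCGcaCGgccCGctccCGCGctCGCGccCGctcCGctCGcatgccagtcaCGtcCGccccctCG
The Tet2 stretch holds 51 CG dinucleotides, more than 99.9% of the 32851 mouse promoters compared, and is built of a repeated unit. The Tet3 stretch holds 17, more than 76.5% of them, and the corresponding stretch of Tet1 holds 15. The median over all promoters was 6. On either strand, none of the 3 TET stretches contains the cAMP response element TGACGTCA, the shorter TGACG or the AP-1 motif TGANTCA, which occur in 1.55%, 17.8% and 6.75% of the promoters. Among the 9 genes the full TGACGTCA was found in the stretch of Tdg alone, 135 bases before its start, where it also accounts for the matches to TGACG. These are matches of letters and not measured binding. The 3 TET stretches lie inside the gene spans given above, that of Tet1 at chr10:62887325-62887574. The bases before annotated transcripts that start further upstream were not searched.

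Tet3 was 99.7, 94.1, 89.3 and 90.7 CPM in Control-shRNA at baseline and 471, 300.1, 314 and 317 CPM with bicuculline. In Dnmt3a1-shRNA cultures it was 120.0, 96.4, 114 and 122 CPM at baseline and 507, 416, 383 and 409.9 CPM with bicuculline. Bicuculline and baseline libraries were far apart in either arm, the lowest of the former at 300.1 and 383 CPM against the highest of the latter at 99.7 and 122 CPM. The difference was 1.91 ± 0.13 in Control-shRNA cultures (edgeR adjusted p = 2.6e-09) and 1.92 ± 0.13 in Dnmt3a1-shRNA cultures (edgeR adjusted p = 1.7e-09). Control-shRNA bicuculline replicate 1 stood far above the other 3 libraries of its group, and without it the difference was 1.73. That library also had the highest mitochondrial share of its group, 5.86% against 3.34% to 4.15% in the others. Replicate 1 had the highest share in the other groups as well. It was 4.75% in Control-shRNA at baseline, 5.985% in Dnmt3a1-shRNA at baseline and 6.60% in Dnmt3a1-shRNA with bicuculline. Whether the mitochondrial share and the Tet3 level are linked was not tested.

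Between the shRNAs, Tet3 differed by 0.27 ± 0.13 at baseline and 0.29 ± 0.12 with bicuculline, with the higher mean in the knockdown, and neither passed (edgeR adjusted p = 0.15 and 0.11). These calls depended on the fit and on 1 library. In a fit blocked on replicate number both passed, at 0.27 (edgeR adjusted p = 0.020) and 0.30 (edgeR adjusted p = 0.0088). Without Control-shRNA bicuculline replicate 1 both passed as well, at 0.27 (edgeR adjusted p = 0.036) and 0.46 (edgeR adjusted p = 0.0026). With only the 2 baseline groups fitted the former was 0.26 and passed (edgeR adjusted p = 0.037).

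Tet2 was 28.6, 24.5, 28.7 and 31.4 CPM in Control-shRNA at baseline and 71.1, 50.9, 51.2 and 63.0 CPM with bicuculline. In Dnmt3a1-shRNA cultures it was 33.6, 24.2, 30.0 and 33.0 CPM at baseline and 104, 76.8, 66.2 and 74.3 CPM with bicuculline. As for Tet3, replicate 1 was the highest bicuculline library in both arms, and no bicuculline library overlapped a baseline library of its arm. The difference was 1.06 ± 0.14 in Control-shRNA cultures (edgeR adjusted p = 1.1e-05) and 1.41 ± 0.14 in Dnmt3a1-shRNA cultures (edgeR adjusted p = 3.3e-07). Under the knockdown Tet2 was 0.45 ± 0.14 higher with bicuculline (1.36-fold, edgeR adjusted p = 0.035), with overlapping groups, while at baseline the difference was 0.09 ± 0.14 (edgeR adjusted p = 0.72), or −0.14 on the scale of log2(TPM + 0.1). The call with bicuculline was lost without Control-shRNA bicuculline replicate 2 or 3 or without Dnmt3a1-shRNA bicuculline replicate 1 or 2 (0.29 to 0.47, edgeR adjusted p 0.056 to 0.14). It was also lost on log2(TPM + 0.1) (0.32, limma adjusted p = 0.11) and with only the 2 groups fitted (0.45, edgeR adjusted p = 0.062).

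Tet1 ran the other way. It was 36.9, 27.6, 33.9 and 37.7 CPM in Control-shRNA at baseline and 18.1, 16.2, 18.3 and 16.1 CPM with bicuculline. In Dnmt3a1-shRNA cultures it was 38.8, 21.2, 31.2 and 38.6 CPM at baseline and 17, 11.3, 14.1 and 14.5 CPM with bicuculline. The groups did not overlap in either arm, although Dnmt3a1-shRNA baseline replicate 2 sat well below its group, as it did for Tet2 and Tet3. The difference was −0.99 ± 0.16 in Control-shRNA cultures (edgeR adjusted p = 8.4e-05) and −1.19 ± 0.16 in Dnmt3a1-shRNA cultures (edgeR adjusted p = 1.0e-05). The knockdown gave −0.07 ± 0.16 at baseline (95% interval −0.37 to 0.24, edgeR adjusted p = 0.82) and −0.27 ± 0.17 with bicuculline (edgeR adjusted p = 0.28). Blocked on replicate number, the latter passed (−0.29, edgeR adjusted p = 0.044).

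**Figure D2:**
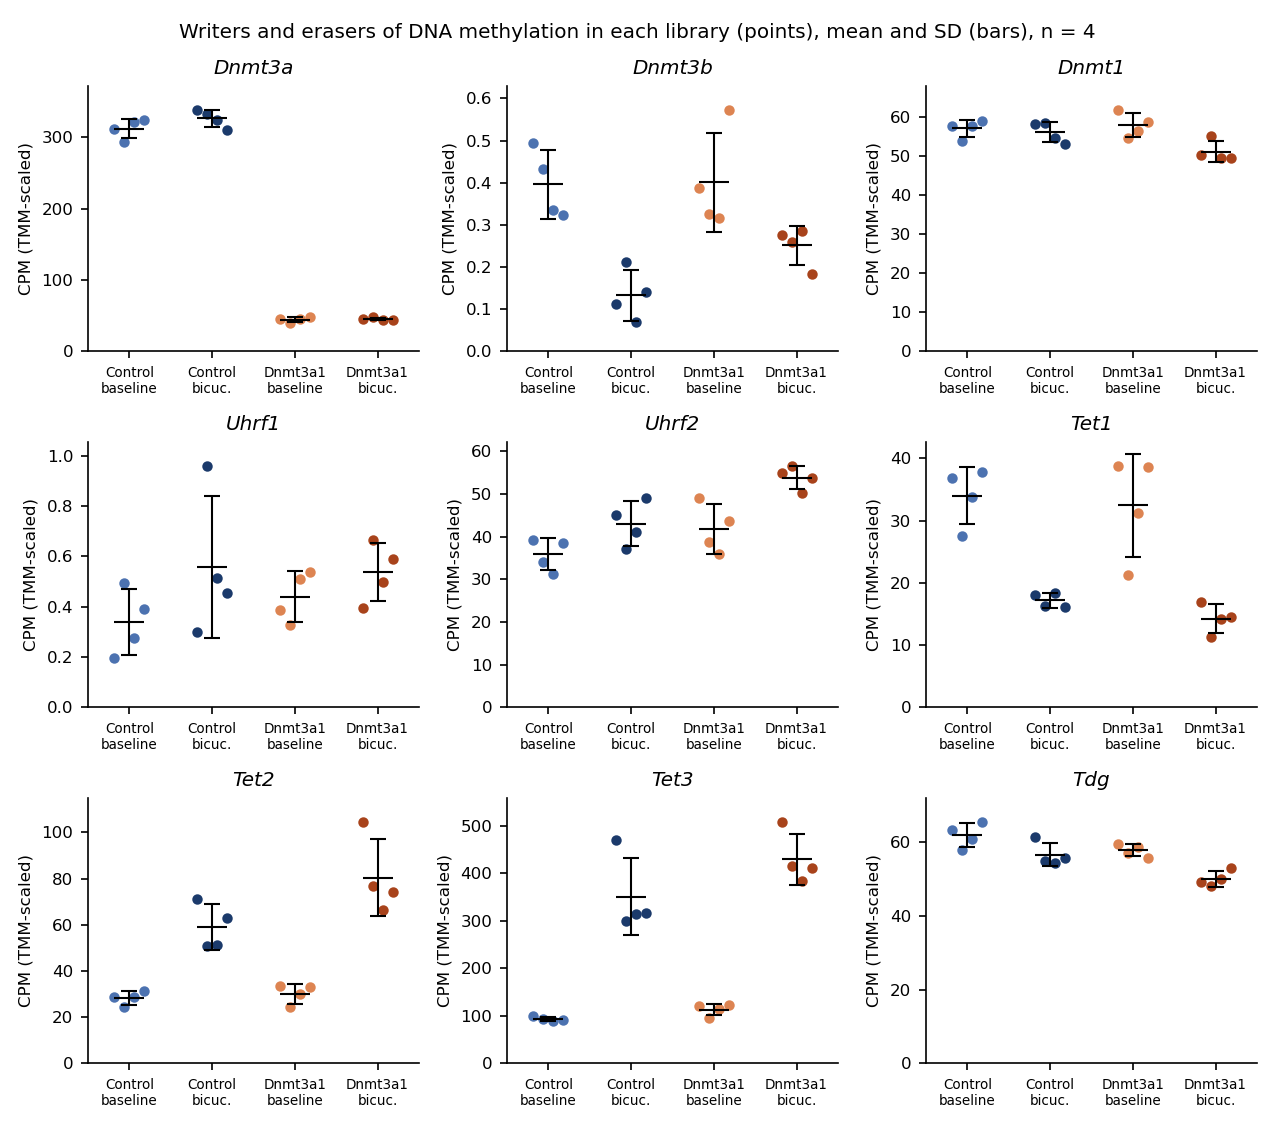
CPM (y axes, from 0, TMM-scaled) of the 9 genes in each library (points) of the 4 groups (x axes), with mean and SD (bars, n = 4). Dnmt3a separates by shRNA, Tet1, Tet2 and Tet3 by bicuculline, and Tet3 in Control-shRNA bicuculline replicate 1 stands above the rest of its group at 471 CPM.

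The lengths of the TET transcripts were read from the same relation of count and TPM. Tet3 RNA had a mean length of 10569 to 10824 nt over the 16 libraries, just under the 10904 nt of its longest annotated transcript Tet3-202. Tet2 RNA ranged from 6062 to 7648 nt and Tet1 RNA from 7126 to 10737 nt, and in both the 4 groups overlapped. The longest annotated transcripts are 9179 nt (Tet2-201) and 14369 nt (Tet1-206). The exons of Tet2 and Dnmt3a overlap those of Gm42567 and Dnmt3aos on the other strand, and whether the counting used strand was not given in the sources used here, so reads of these pairs cannot be told apart.

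Tdg (ENSMUSG00000034674.18, chr10:82629828-82650799, plus strand), which acts after the TET enzymes, moved downward, by an amount that depends on the scaling. It was 63.4, 57.9, 61.1 and 65.5 CPM in Control-shRNA at baseline and 61.3, 55.0, 54.4 and 55.8 CPM with bicuculline. In Dnmt3a1-shRNA cultures it was 59.5, 57.2, 58.8 and 55.8 CPM at baseline and 49.3, 48.1, 49.9 and 53.1 CPM with bicuculline. The Dnmt3a1-shRNA bicuculline libraries lay below all others. Tdg fell with bicuculline in Dnmt3a1-shRNA cultures by 0.21 ± 0.06 on the log2 scale (edgeR adjusted p = 0.0061). With bicuculline it was lower in Dnmt3a1-shRNA than in Control-shRNA, at −0.18 ± 0.06 (edgeR adjusted p = 0.039). In Control-shRNA cultures the bicuculline difference was −0.13 ± 0.06 (edgeR adjusted p = 0.077), and it passed when blocked on replicate number (−0.13, edgeR adjusted p = 0.041) and without Control-shRNA baseline replicate 2 (−0.16, edgeR adjusted p = 0.042) or Control-shRNA bicuculline replicate 1 (−0.17, edgeR adjusted p = 0.022). Scaled by library size alone it was −0.29 (edgeR adjusted p = 0.00046) and on log2(TPM + 0.1) −0.36 (limma adjusted p = 0.00084), with 50.8 to 57.5 TPM at baseline and 41.6 to 42.3 TPM with bicuculline. At baseline the knockdown gave −0.10 ± 0.06 (edgeR adjusted p = 0.26), or −0.18 when scaled by library size alone (edgeR adjusted p = 0.042).

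The knockdown call for Tdg with bicuculline was lost without any one of 7 libraries (−0.18 to −0.14, edgeR adjusted p 0.050 to 0.098). They were Control-shRNA baseline replicates 1 and 3, Control-shRNA bicuculline replicates 1 and 4 and Dnmt3a1-shRNA bicuculline replicates 1, 2 and 3. It was also lost with DESeq2 size factors in edgeR (−0.16, adjusted p = 0.061), without a filter on low counts (−0.18, edgeR adjusted p = 0.17) and with only the 2 groups fitted (−0.18, edgeR adjusted p = 0.076). Tdg values are uncertain in a further way, as 41.8% of its 31-base stretches occur in other genes, 37.1% in the pseudogene Tdg-ps. The latter had 0 to 2 counts per library. Its exons also overlap those of Glt8d2 on the other strand.

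**Figure D3:**
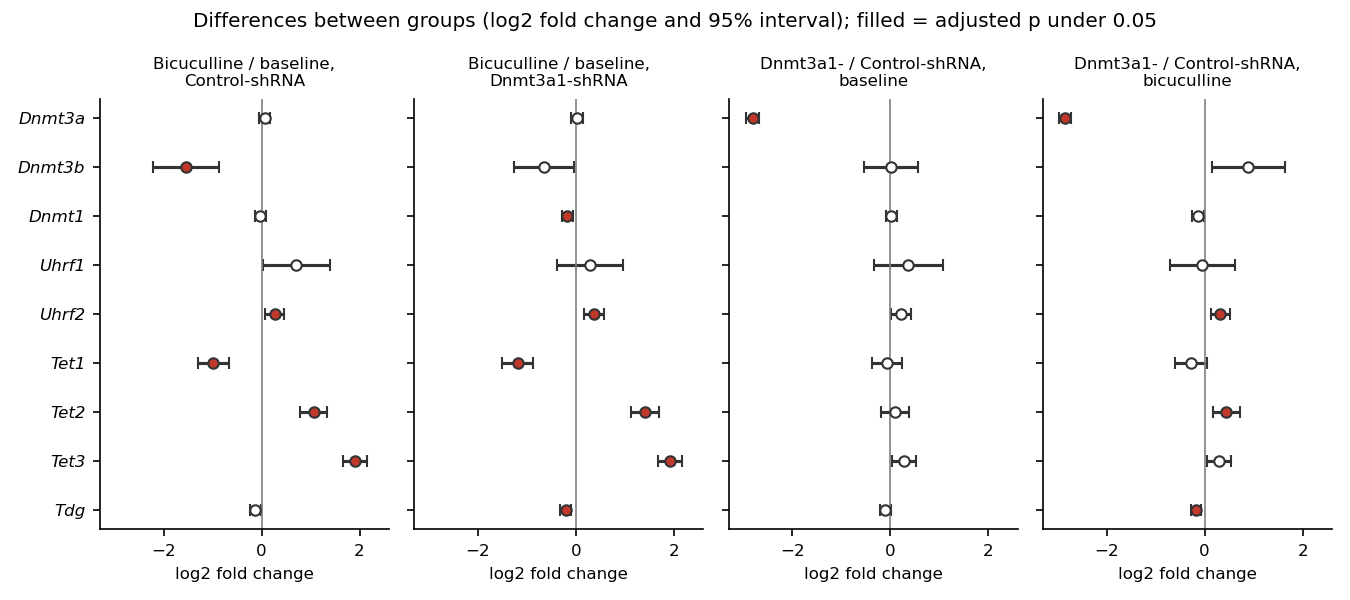
Log2 fold change (x axis, 0 at the grey line) with its 95% interval of the 9 genes (rows) in the 4 comparisons (panels), with a filled point for an adjusted p under 0.05. Tet1, Tet2 and Tet3 are filled in both bicuculline panels, and Dnmt3a at −2.81 and −2.85 is the lowest point of the knockdown panels.

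Counted over the 9 genes, 5 passed for the bicuculline response in Control-shRNA cultures, where 41.4% of all tested genes passed. Of these 5, Tet3, Tet2 and Uhrf2 were higher and Tet1 and Dnmt3b lower, against 19.5% of all genes higher and 21.9% lower, and 4 were past the fold limit, against 21.9% of all genes. In Dnmt3a1-shRNA cultures 6 of 9 passed, against 46% of all genes. The higher ones were again Tet3, Tet2 and Uhrf2 (20.8% of all genes), the lower ones Tet1, Tdg and Dnmt1 (25.2%), and 3 were past the fold limit (25.8%). The 2 responses share no library, and 3 higher genes and 1 lower gene, Tet1, passed in both. The fit took the spread from all 16 libraries, so the calls of the 2 arms are not independent. The median difference of the 9 genes was 0.06 and 0.03, near the 0.01 and −0.01 of all tested genes. With a background this high, the number of genes that passed does not set the 9 apart, and the sizes and directions given above are the result.

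Between the shRNAs at baseline 1 of 9 genes passed, the targeted Dnmt3a, against 16.3% of all genes in either direction, 8.12% higher, 8.19% lower and 5.83% past the fold limit. With bicuculline 4 of 9 passed, against 17.7% of all genes. Uhrf2 and Tet2 were higher (7.69% of all genes) and Dnmt3a and Tdg lower (9.99%), and Dnmt3a alone was past the fold limit (5.89%). The median difference of the 9 genes was 0.02 at baseline and −0.05 with bicuculline. The baseline comparison uses the same Control-shRNA baseline libraries as the bicuculline response of the control arm, so the values of the 2 comparisons are not independent.

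Whether the bicuculline response differed between the shRNAs was tested as an interaction. None of the 9 genes and 0% of the 17222 tested genes passed in the main edgeR fit. There 852 genes had an unadjusted p under 0.05, none of them among the 9. In the edgeR fit blocked on replicate number 3 genes passed, none of the 9, and 1 of the 9 had an unadjusted p under 0.05. In DESeq2 18 genes had an adjusted p under 0.05, again none of the 9. The interaction was 0.02 ± 0.18 for Tet3 (95% interval −0.33 to 0.36), 0.35 ± 0.20 for Tet2 (−0.04 to 0.74) and −0.20 ± 0.23 for Tet1 (−0.65 to 0.24). For Dnmt3b, called in 1 arm only, it was 0.88 ± 0.47 (−0.04 to 1.80), and for Dnmt1 −0.16 ± 0.08 (−0.32 to 0.00). The calls that passed in 1 arm and not in the other are therefore not shown to differ between arms.

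Compared per transcript length, Dnmt3a led in Control-shRNA cultures at baseline, with 75.3 ± 8.2 TPM (SD, n = 4). Tdg followed with 53.9 ± 3.3, then Uhrf2 with 27.5 ± 3.1, Dnmt1 with 23.7 ± 1.2, Tet3 with 18.5 ± 0.63, Tet2 with 9.27 ± 1.5 and Tet1 with 8.10 ± 2.0 TPM. Uhrf1 (0.304 ± 0.19 TPM) and Dnmt3b (0.272 ± 0.083 TPM) came last. In this order the ranges of Uhrf2 and Dnmt1, of Tet2 and Tet1, and of Uhrf1 and Dnmt3b overlapped, and the other neighbours did not.

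With bicuculline the order changed mainly through Tet3. In Control-shRNA cultures Tet3 reached 59.5 ± 10.7 TPM, second to Dnmt3a at 69.0 ± 3.1, and their ranges overlapped. In Dnmt3a1-shRNA cultures at baseline Dnmt3a fell to the fifth place with 10.1 ± 1.4 TPM, level with Tet2 (8.35 ± 0.91) and below Tet3 (20.7 ± 2.7). With bicuculline Tet3 stood first there with 68.4 ± 4.5 TPM, above every other gene of the set, followed by Tdg (34.6 ± 2.8) and Uhrf2 (33.9 ± 3.0).

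The sum of the 3 methyltransferases was 90.2, 93.6, 111 and 102 TPM in Control-shRNA at baseline, and the sum of the 3 TET genes 34.7, 32.3, 38.4 and 38.0 TPM, against 28.3 to 41.3 TPM for the latter in Dnmt3a1-shRNA at baseline. With bicuculline the TET sum was 95.5, 70.2, 74.2 and 73.0 TPM in Control-shRNA and 99.9, 87.4, 87.7 and 86.9 TPM in Dnmt3a1-shRNA cultures. The TET sum thus separated by bicuculline and the methyltransferase sum by shRNA. In Control-shRNA cultures the targeted gene, Dnmt3a, was the largest part of the methyltransferase sum. That sum was 29.1 to 35.3 TPM in Dnmt3a1-shRNA at baseline and 24.2 to 28.0 TPM with bicuculline, so in this arm it also separated by bicuculline. There its change upon bicuculline was −0.29 on the log2 scale in TPM and −0.089 in CPM. The ratio of TET to methyltransferase transcripts was 0.345 to 0.385 in Control-shRNA at baseline, 0.774 to 1.09 in Control-shRNA with bicuculline, 0.972 to 1.17 in Dnmt3a1-shRNA at baseline and 3.12 to 4.13 in Dnmt3a1-shRNA with bicuculline. Control bicuculline and knockdown baseline libraries overlapped in this ratio, while the other groups stood apart. These are transcript ratios and not enzyme amounts, and they were not tested. The change of the methyltransferase sum upon bicuculline in Control-shRNA cultures, −0.15 on the log2 scale in TPM, was 0.05 in CPM, so its direction depends on the scale.

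Within the TET sum, Tet3 made up 51.9% ± 5.2 (SD, n = 4) in Control-shRNA at baseline and 75.9% ± 2.5 with bicuculline, and 57.6% ± 2.3 and 75.6% ± 0.4 in Dnmt3a1-shRNA cultures. The share of Tet1 was 22.4% ± 3.8 and 4.42% ± 0.55 in Control-shRNA, and 19.1% ± 4.0 and 3.31% ± 0.67 in Dnmt3a1-shRNA cultures. The share of Tet2 was 25.8% ± 2.8 and 19.7% ± 2.2 in Control-shRNA, where the ranges of 22.9% to 28.8% and 17.5% to 21.6% do not overlap, and 23.3% ± 1.7 and 21.1% ± 0.99 in Dnmt3a1-shRNA cultures, where the ranges overlap. Dnmt3a made up 75.7% ± 1.1 of the methyltransferase sum in Control-shRNA at baseline and 31% ± 1.8 in Dnmt3a1-shRNA at baseline, the rest being almost all Dnmt1.

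**Figure D4:**
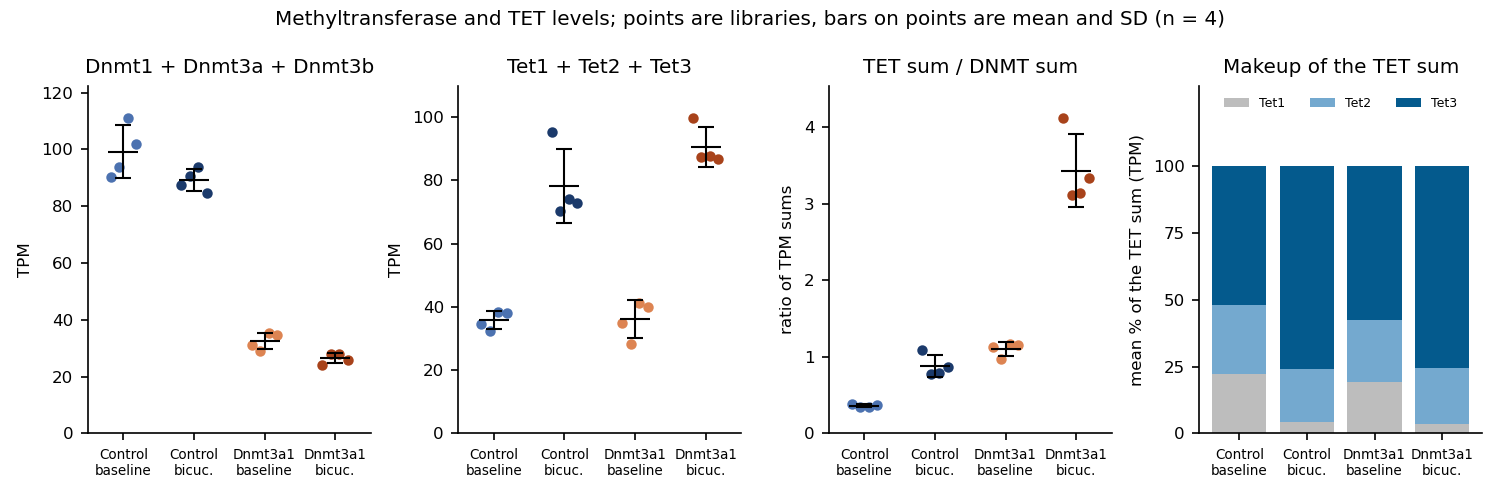
Summed TPM of Dnmt1, Dnmt3a and Dnmt3b, summed TPM of Tet1, Tet2 and Tet3, and the ratio of the 2 sums (y axes) in each library (points) of the 4 groups (x axes) with mean and SD (bars, n = 4), and in the last panel the mean share of each TET gene in percent. The ratio lies at 0.345 to 0.385 in Control-shRNA baseline libraries and at 3.12 to 4.13 in Dnmt3a1-shRNA bicuculline libraries.

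The wider pathway was followed through 37 genes in 5 lists, of which 33 were tested. The other 4, Dnmt3l, Dppa3 and Apobec2 among them, had too few counts, with at most 14 in any library. Upon bicuculline 5 of the 33 were higher and 13 lower in Control-shRNA cultures, and 6 were higher and 14 lower in Dnmt3a1-shRNA cultures, with 5 higher and 11 lower genes in common. Of all tested genes, 19.5% were higher and 21.9% lower in the former, and 20.8% and 25.2% in the latter. The median difference was −0.16 and −0.21. Between the shRNAs 1 was higher and 2 lower at baseline, and 4 were higher and 2 lower with bicuculline, against 8.12% and 8.19% of all genes at baseline and 7.69% and 9.99% with bicuculline. At baseline Cxxc4 was the higher gene, and Ahcy and Mat2b were the lower ones. With bicuculline Pcna, Idh1, Ogt and Mat2a were higher, and Ahcy and Parp1 lower.

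Among 7 tested cofactors and targeting factors of the methyltransferases, 2 were higher and 1 lower with bicuculline in Control-shRNA cultures, and 2 were higher and 2 lower in Dnmt3a1-shRNA cultures, close to the 41.4% and 46% of all genes that passed. Pcna, the sliding clamp that holds Dnmt1 at replication forks and also serves repair, rose by 0.76 ± 0.07 in Control-shRNA (edgeR adjusted p = 6.6e-08) and 0.95 ± 0.07 in Dnmt3a1-shRNA cultures (edgeR adjusted p = 3.3e-09), from 25.9 to 28.3 CPM up to 42.5 to 50.3 CPM in the former. Of its 31-base stretches 23.3% are shared, mostly with Pcna-ps2, which had 0 to 3 counts. Usp7, a deubiquitinase that stabilizes Dnmt1, rose less, by 0.22 ± 0.08 and 0.29 ± 0.08. Cdca7, a partner of the remodeler Hells, fell in Dnmt3a1-shRNA cultures, at −0.87 ± 0.26 (edgeR adjusted p = 0.011), while the value in Control-shRNA cultures was −0.38 ± 0.25 (edgeR adjusted p = 0.25) and the interaction of −0.49 ± 0.36 did not pass.

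The list of TET partners and of enzymes around 2-oxoglutarate, the TET cosubstrate, had 7 tested genes, of which 5 were lower and none higher with bicuculline in each arm, against 21.9% and 25.2% of all genes lower. Cxxc5 and Cxxc4 encode CXXC proteins known to bind Tet2, which has no DNA-binding CXXC domain of its own. Cxxc5 was 30.2 to 35.2 CPM in Control-shRNA at baseline and 20.7 to 24.0 CPM with bicuculline, a fall of 0.55 ± 0.07 on the log2 scale (edgeR adjusted p = 5.6e-06), and differed by −0.59 ± 0.07 in Dnmt3a1-shRNA cultures (edgeR adjusted p = 1.8e-06). Cxxc4 gave −0.42 ± 0.08 and −0.57 ± 0.08, and was 0.25 ± 0.08 higher in the knockdown at baseline (edgeR adjusted p = 0.045). Ogt, a glycosyltransferase that binds TET proteins, gave −0.36 ± 0.06 and −0.30 ± 0.06. In these genes the fall ran beside the rise of Tet2 and Tet3 and the fall of Tet1.

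Of 11 base excision repair genes, not all of which act on the products of TET and Tdg, 2 were higher and 5 lower with bicuculline in each arm. The same 7 genes passed in both, against 41.4% and 46% of all genes in either direction. Apex1, the endonuclease that opens the site left by Tdg, was 29.1 to 33.5 CPM in Control-shRNA at baseline and 17.2 to 18.9 CPM with bicuculline. It gave −0.81 ± 0.08 there (edgeR adjusted p = 6.2e-07) and −0.99 ± 0.09 in Dnmt3a1-shRNA cultures (edgeR adjusted p = 4.6e-08). The glycosylase Smug1 gave −0.60 ± 0.10 and −0.87 ± 0.10. Another glycosylase, Ung, gave −0.73 ± 0.28 and −0.83 ± 0.32 at 0.198 to 1.71 CPM. The ligase Lig3 and its partner Xrcc1 fell as well, while Parp1 and the polymerase Polb rose, by 0.34 ± 0.07 and 0.39 ± 0.11 in Control-shRNA cultures. The exons of Apex1 overlap those of Pip4p1 on the other strand.

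In the cycle that supplies S-adenosylmethionine, the methyl donor of the methyltransferases, Mat2b and Mtrr were lower with bicuculline in both arms. Mat2b, the regulatory subunit of the enzyme that makes the donor, gave −0.70 ± 0.06 and −0.56 ± 0.07, and Mtrr, which keeps methionine synthase active, −0.72 ± 0.13 and −0.54 ± 0.13. The catalytic subunit gene Mat2a rose in Dnmt3a1-shRNA cultures by 0.28 ± 0.09 (edgeR adjusted p = 0.021), with 0.16 ± 0.09 in Control-shRNA cultures (edgeR adjusted p = 0.18) and an interaction of 0.11 ± 0.13 that did not pass. Mat2b was also lower in the knockdown at baseline, at −0.30 ± 0.06 (edgeR adjusted p = 0.0039). With bicuculline its knockdown difference did not pass (edgeR adjusted p = 0.10). Mat2a was higher in the knockdown with bicuculline, at 0.28 ± 0.09 (edgeR adjusted p = 0.048), and did not pass at baseline (edgeR adjusted p = 0.26). Ahcy, which removes the inhibitory product S-adenosylhomocysteine, had the largest difference between the shRNAs among the pathway genes that passed. It was 19.6 to 22.2 CPM in Control-shRNA and 10.7 to 11.7 CPM in Dnmt3a1-shRNA cultures at baseline, a difference of −0.90 ± 0.07 (edgeR adjusted p = 9.6e-08), and differed by −0.99 ± 0.07 with bicuculline (edgeR adjusted p = 2.5e-08). Ahcy is uncertain, since 71.4% of its 31-base stretches occur in other genes, 68.7% in Gm4737, which is listed at 0 counts in all libraries.

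Of the cytidine deaminases, 2 of 4 were tested, and Apobec3 was higher with bicuculline by 0.84 ± 0.21 in Control-shRNA (edgeR adjusted p = 0.0037) and 1.08 ± 0.21 in Dnmt3a1-shRNA cultures (edgeR adjusted p = 0.00031), from about 1 CPM at baseline. Its exons overlap those of Cbx7 on the other strand.

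**Figure D5:**
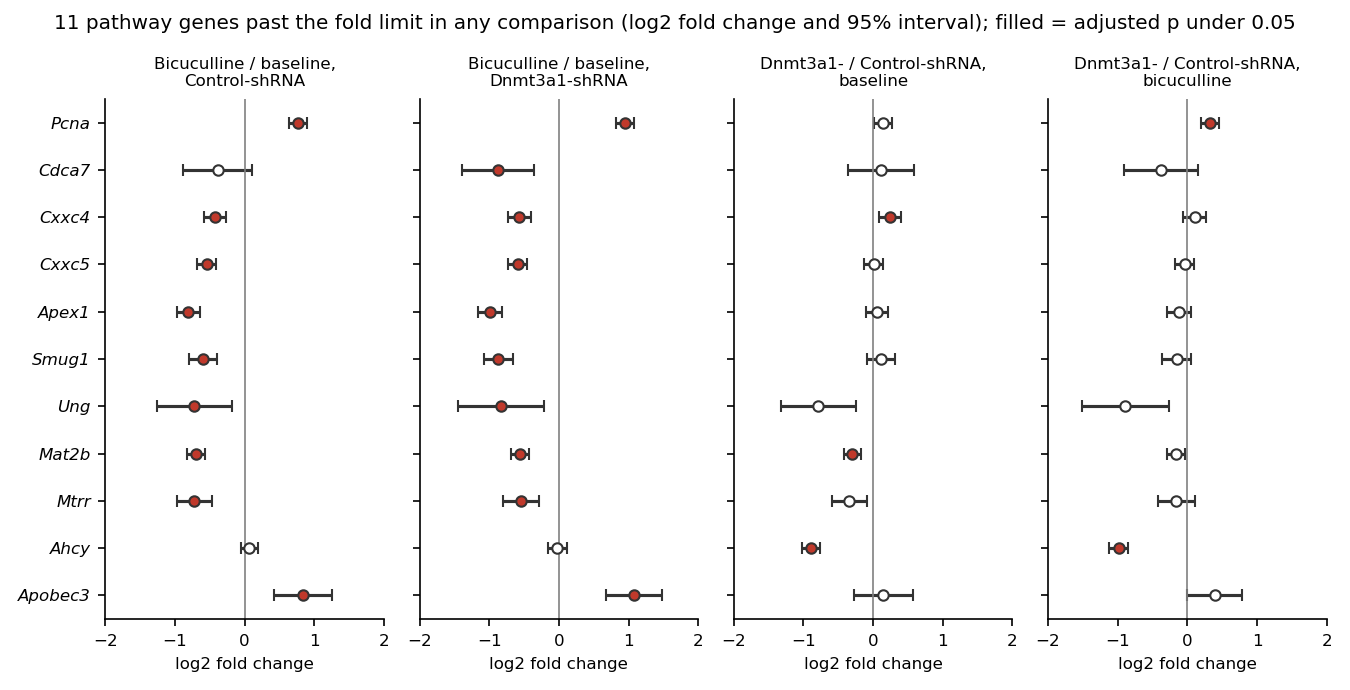
Log2 fold change (x axis, 0 at the grey line) with its 95% interval of 11 pathway genes (rows) that passed with a log2 fold change past 0.5 in at least 1 comparison, in the 4 comparisons (panels), with filled points for an adjusted p under 0.05. Ahcy is filled in the knockdown panels at −0.90 and −0.99 and open in the bicuculline panels, and Pcna and Apobec3 are the 2 genes to the right of 0 and filled in the bicuculline panels.

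Over the 16 libraries the levels of some of the 9 genes went together. As a description across libraries that share 4 group means, Pearson's r of log2 CPM was 0.97 between Tet2 and Tet3, −0.87 between Tet1 and Tet3, 0.80 between Tet2 and Uhrf2, and 0.78 between Tet1 and Tdg (n = 16). Among genes of at least 1 CPM, the 2 most like Tet3 were Homer1 (r = 0.997), a synaptic scaffold gene, and Sik2 (0.995), a kinase. Those most like Tet2 were Btbd8 (0.995) and Fndc3a (0.994), and those most like Tet1 were Dlg3 (0.987), a synaptic scaffold gene, and Clasp1 (0.983), which encodes a microtubule-binding protein. For Dnmt3a they were Rab2b (0.995) and Itfg1 (0.993), for Tdg Zfp773 (0.963) and Eif2ak1 (0.952), and for Uhrf2 Csrp2 (0.957) and Rcor1 (0.955). Dnmt1 (0.860 with Vps53, 0.844 with Spag6l), Dnmt3b (0.909 with Ocln, 0.897 with Mccc2) and Uhrf1 (0.853 with Aga, 0.823 with Caskin2) had no gene as close.

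Markers of other cells moved beside these results. All 6 markers of GABAergic neurons were higher with bicuculline in both arms, with a summed level of 1664 to 1979 CPM in Control-shRNA at baseline and 2481 to 2837 CPM with bicuculline, and 1299 to 1506 and 2163 to 2549 CPM in Dnmt3a1-shRNA cultures. The 6 astrocyte markers summed to 658 to 840.4 CPM in Control-shRNA at baseline and 661 to 873 CPM with bicuculline. In Dnmt3a1-shRNA cultures they summed to 666 to 957 and 782 to 976 CPM, which overlap the control ranges. Of the 6, S100b alone passed between the shRNAs, with 16 to 56 counts per library. It was higher in the knockdown, by 0.82 at baseline and 0.84 with bicuculline. Of 10 proliferation genes 7 were tested, and Mcm2, Mcm6 and Rrm2 were lower with bicuculline in both arms, with a summed level for the 10 of 22.1 to 25.5 CPM in Control-shRNA at baseline and 16.1 to 17.4 CPM with bicuculline. Markers of the oligodendrocyte lineage summed to 97.2 to 224 CPM and those of fibroblasts and vessels to 34.4 to 85.9 CPM over all libraries. Microglial markers summed to at most 4.9 CPM, with Cx3cr1 and P2ry12 at 0 in at least 1 library. The part of these cells in the changes of the TET genes, of Uhrf2 and of Tdg was not tested.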

How the data were processed

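RNA of 16 hippocampal cultures was sequenced as paired reads. Per the labels, reads were trimmed with Trim Galore 0.6.4 and counted by kallisto on GRCm38.p6, and the authors deposited 1 table of estimated counts and 1 of TPM per library, each summed over all transcripts of a gene. Estimated counts were rounded here and fitted with edgeR 4.0.16 (R 4.3.3): TMM factors, filterByExpr, a quasi-likelihood model of all 16 libraries with 1 term per group, and Benjamini-Hochberg adjustment over 17222 genes. All 9 genes entered the fit, so the permutation test planned for untested genes was not needed. CPM carry TMM factors, and TPM are as deposited. DESeq2 1.42.0 and limma 3.58.1 served as alternatives.

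The 9 genes and the pathway and marker lists were chosen with earlier results of these data known. The pathway genes named were those that passed with a log2 fold change past 0.5 in at least 1 comparison, with further genes of each list chosen after their values were seen. Some genes of these lists are counted but not reported here by name. The genes most like each member were the 2 with the highest Pearson's r of log2 CPM among 13880 genes of at least 1 CPM. The transcript lengths were added after the data were seen.

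Of 55385 identifiers, 55144 matched GENCODE M21. Promoters came from RefSeq (GRCm38.p6), where all 9 genes matched. No 2 libraries of a group agreed within sampling noise. Same-numbered libraries deviated together for the bicuculline response of Control-shRNA cultures (r from 0.142 to 0.221) and for the knockdown at baseline (0.204 to 0.355), where every number was over 0.1, and less clearly in the comparisons that involve Dnmt3a1-shRNA with bicuculline. In a simulation of the knockdown at baseline on 16923 genes, 59.1% of 88 genes changed by 0.5 (log2) and 88.4% of 112 genes changed by 1 were recovered. The simulation also gave 12 false calls. Changes under 0.5, the size of most member differences between the shRNAs, were not simulated.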

Additional observations from a re-analysis of the deposited data

Results flagged for a closer look

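Of 36 sets of 4 libraries (9 genes in 4 groups), 2 held a library that stood apart from the other 3 by Dixon's 95% criterion, which chance alone meets in about 1 of 20 sets. Tet3 in Control-shRNA bicuculline replicate 1 was at 471 CPM, while the other 3 libraries were between 300.1 and 317 CPM. Dnmt1 in Dnmt3a1-shRNA bicuculline replicate 2 was at 55.0 CPM, while the other 3 were between 49.4 and 50.2 CPM.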

How the results depend on the processing

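In DESeq2 the 45 member values kept direction and call, as did all 35 of the 7 genes with at least 10 counts in every library. Scaling by library size alone moved the median of all genes by −0.15 and −0.16 (bicuculline) and TPM by up to −0.19, so values near 0 turn there. Dnmt3a with bicuculline in Control-shRNA cultures was −0.095 (library sizes, edgeR), −0.094 (voom, library sizes), −0.12 (TPM + 0.1) and −0.12 (TPM + 1), and in Dnmt3a1-shRNA cultures −0.12, −0.12, −0.12 and −0.11. In the knockdown at baseline the same order gave −0.060, −0.060, −0.10 and −0.099 for Dnmt1, and Dnmt3b was −0.065 and −0.080 by library sizes and −0.0013 by voom with TMM. TPM + 0.1 and TPM + 1 gave −0.14 and −0.13 for Tet2 and −0.0076 and −0.015 for Uhrf1 there, and interactions of 0.033 and 0.046 for Tet1, −0.00039 and −0.00010 for Uhrf2 and, for TPM + 1, 0.0052 for Dnmt3a. Uhrf1 in the knockdown with bicuculline was 0.049 by voom with TMM. None of these turned values passed. With a fold limit the members called numbered 3 for bicuculline in Dnmt3a1-shRNA cultures and 1 for the knockdown with bicuculline. The knockdown at baseline called 2 members by library sizes (edgeR and voom) and with only the 2 groups fitted, and the knockdown with bicuculline 2 by either TPM scale and with only the 2 groups fitted. In CPM the methyltransferase sum changed by 0.050, −0.089, −1.85 and −1.99 (bicuculline in Control-shRNA and Dnmt3a1-shRNA cultures, knockdown at baseline and with bicuculline) and the TET sum by 1.45 with bicuculline in Control-shRNA cultures.

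Blocked on replicate number, the knockdown at baseline called 3 members in place of 1, and over all genes 4743 in place of 2809, or 5158 in place of 3046 with bicuculline. The pairing changed 5 member calls, all to passing and each given with its gene above, and no other. On log2(TPM + 0.1) limma called 1783 genes for the knockdown at baseline.

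Leaving out 1 library at a time, the members called ranged from 1 to 2 for the knockdown at baseline (2 without Control-shRNA bicuculline replicate 1) and from 1 to 4 with bicuculline (1 without Dnmt3a1-shRNA bicuculline replicate 1 or 2, and 2 without Control-shRNA bicuculline replicate 2 or 3). Values that turned without passing ranged from −0.029 to 0.064 for Dnmt3a with bicuculline in Dnmt3a1-shRNA cultures, and in the knockdown at baseline from −0.011 to 0.049 for Dnmt1, −0.20 to 0.13 for Dnmt3b, −0.16 to 0.090 for Tet1 and −0.061 to 0.11 for the TET sum. Uhrf1 in the knockdown with bicuculline ranged from −0.25 to 0.34, and the interaction from −0.093 to 0.00069 for Dnmt3a and −0.073 to 0.19 for Tet3. The cause of these changes was not tested. Dnmt3b and Uhrf1 had only 2 to 27 counts per library, so their values are uncertain.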
